A study of Mus musculus with 12 samples.

Results

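Ephrins, Eph receptors, semaphorins and plexins are cell surface and secreted proteins by which neighbouring cells attract, repel or sort from each other. The members described here were every locus of the deposited transcript annotation that matched a reference transcript of a gene named Efna or Efnb, Epha or Ephb, Sema3 to Sema7, or Plxna to Plxnd. There were 51 such genes on 51 loci, out of 79655 loci with a position, and they comprised 8 ephrins, 14 Eph receptors, 20 semaphorins and 9 plexins. Of these, 46 passed the filter on low values, a mean FPKM above 0.1 in at least 1 group. FPKM is the level in CPM (the count scaled to library size) divided by the exon length in kilobases. The filter had the counts of all loci as its base, while the CPM and FPKM printed here have the tested loci as theirs. The other 5 (Epha3, Epha5, Epha6, Epha10 and Plxnb3) were not tested, and the highest of their group means was 0.806 CPM.

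Poly(A) RNA was measured in 12 libraries, 4 a group, from 1 mouse EomesEGFP reporter embryonic stem cell (ESC) line of C57BL/6 background, in which the EGFP cassette sits at the start site of the endogenous Eomes gene. All 3 groups were therefore derived from the same reporter line. The ESC group was taken at day 0 from undifferentiated cells, kept on mouse embryonic fibroblast feeders, and the Eo+ and Eo- groups were sorted at day 3 from hanging drop cultures by the presence or absence of the fluorescent protein. Replicates are numbered 1, 2, 5 and 6 in each group and belong to separate differentiation sets of this line, so p-values describe the spread between these sets and not between lines.

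Each library held between 648413022 and 837308168 locus counts, of which the members took 0.0740% to 0.168%, and 3 counts amounted to at most 0.00485 CPM. These totals exceed the number of reads per sample that the labels state, so a count may not stand for 1 sequenced fragment and counting error may be larger than the totals imply. Eomes itself read 37.9 to 59.4 CPM in ESC, 120 to 174 CPM in Eo- and 463 to 665 CPM in Eo+ libraries, so the Eo- fraction was not devoid of its RNA. The summed level of 10 fibroblast markers was 110 to 269 CPM in ESC libraries, highest in replicates 1 and 5, and 38.4 to 57.4 CPM in the day 3 libraries. In each fraction 7 of the 9 tested markers were called lower than in ESC and 1 higher, which was Thy1 in Eo- (14.6 CPM in ESC, 22.1 CPM in Eo-) and Pdgfrb in Eo+ (7.17 and 11.9 CPM). The summed level of 7 endothelial markers was 47.5 to 77.7 CPM in ESC, 33.1 to 195 CPM in Eo- and 107 to 419 CPM in Eo+ libraries. It was highest within each day 3 fraction in replicate 1.

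Ephrins are the ligands of Eph receptor tyrosine kinases. Ephrin-A proteins are tethered to the membrane by a lipid anchor and ephrin-B proteins span it, so both act at cell contacts, and signals can run into the receptor cell and the ligand cell. Semaphorins of class 3 are secreted, those of classes 4 to 6 mostly span the membrane and Sema7a is lipid-anchored. Their receptors are the plexins, which most class 3 semaphorins reach together with a neuropilin. Both systems are known from axon guidance, and also from tissue boundaries, cell migration in gastrulation and the forming vessels and heart.

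The stretches of DNA before the start of 4 members with large differences between the fractions are shown first, because their base composition is unlike. They are the 250 bases preceding the RefSeq start of Sema6d (chr2:124089719-124089968, plus strand), Plxna2 (chr1:194619579-194619828, plus strand), Efnb1 (chrX:99135811-99136060, plus strand) and Epha8 (chr4:136956817-136957066, minus strand) in GRCm38.p6. In Eo+ relative to Eo- cells the first 3 genes were higher and the last was lower. Capitals mark CpG dinucleotides. The orientation of the Efnb1 window, which ends 70 bases before the locus of the deposited annotation, could not be checked against a transcript, while that of the other 3 was.
Sema6d: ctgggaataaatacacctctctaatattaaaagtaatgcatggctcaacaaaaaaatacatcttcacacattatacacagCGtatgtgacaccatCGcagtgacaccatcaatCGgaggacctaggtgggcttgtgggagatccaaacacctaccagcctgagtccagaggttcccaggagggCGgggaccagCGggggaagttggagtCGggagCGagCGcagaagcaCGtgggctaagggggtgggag
Plxna2: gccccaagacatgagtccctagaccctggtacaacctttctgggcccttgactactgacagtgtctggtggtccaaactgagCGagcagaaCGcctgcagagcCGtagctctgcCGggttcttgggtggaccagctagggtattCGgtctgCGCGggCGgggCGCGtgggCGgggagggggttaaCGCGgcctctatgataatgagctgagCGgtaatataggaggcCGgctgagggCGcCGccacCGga
Efnb1: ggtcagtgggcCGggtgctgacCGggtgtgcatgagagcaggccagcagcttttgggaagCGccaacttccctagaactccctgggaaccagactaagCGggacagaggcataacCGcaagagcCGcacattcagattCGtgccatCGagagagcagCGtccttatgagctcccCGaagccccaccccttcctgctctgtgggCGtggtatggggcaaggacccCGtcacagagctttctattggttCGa
Epha8: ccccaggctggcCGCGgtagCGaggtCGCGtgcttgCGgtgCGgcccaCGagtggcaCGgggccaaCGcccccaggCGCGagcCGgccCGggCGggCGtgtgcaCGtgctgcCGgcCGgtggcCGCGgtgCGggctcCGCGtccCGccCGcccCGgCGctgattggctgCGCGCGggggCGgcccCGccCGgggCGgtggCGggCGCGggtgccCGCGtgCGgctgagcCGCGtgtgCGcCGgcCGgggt

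The windows held 9 CpG at Sema6d, 18 at Plxna2, 13 at Efnb1 and 46 at Epha8. Over all 32851 promoter windows of the same length in the RefSeq table the median was 6, and 0.323% of them held as many CpG as Epha8 or more, against 40.3% for Sema6d. An entry was found for 45 of the 51 members, which held a median of 16 CpG, with a range from 1 to 46, and a median GC content of 64.4%, against 52.4% over all windows. Eomes is a T-box factor, and the T-box octamer AGGTGTGA, searched on both strands, whose reverse can overlap an E-box, was in 0 of the 45 windows and in 1.12% of all windows. The E-box CACCTG, also searched on both strands, was in 6 of the 45 (13.3%), among them Efnb2, Epha1, Ephb2 and Sema4c, and in 17.2% of all windows. These are matches of letters within a short stretch. The windows follow RefSeq starts, some of which lie well inside the measured locus. The distance from the start of the locus was 6922 bases at Epha1, 1914 at Efna5, 10904 at Sema3g and 37063 at Sema4d, the window with 1 CpG.

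In Eo+ against ESC, 41 of the 46 tested members were called by limma at an adjusted p of at most 0.05, 33 higher and 8 lower, beside 71.9% of all 17911 tested loci (35.8% higher, 36.1% lower). In Eo- against ESC, 33 members were called, 26 higher and 7 lower, beside 62.2% of the tested loci (30.9% higher, 31.3% lower). In Eo+ against Eo-, 24 members were called, 17 higher and 7 lower, beside 47.7% of the tested loci (23.0% higher, 24.7% lower). The libraries of the groups did not overlap at 39, 30 and 24 members in these comparisons, against 64.5%, 55.8% and 45.9% of all loci. Calls of at least 2-fold numbered 34, 22 and 17 of the members (27, 17 and 13 higher), against 38.1%, 28.3% and 21.1% of all loci (16.3%, 11.9% and 6.12% higher, 21.8%, 16.3% and 15.0% lower). The median log2 fold change of the tested members was 1.13, 0.56 and 0.24, beside 0.00, 0.02 and -0.01 over all loci. The comparisons with ESC share the ESC libraries. In bulk RNA, fewer cells of a type and less RNA per cell cannot be told apart.

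**Figure D1:**
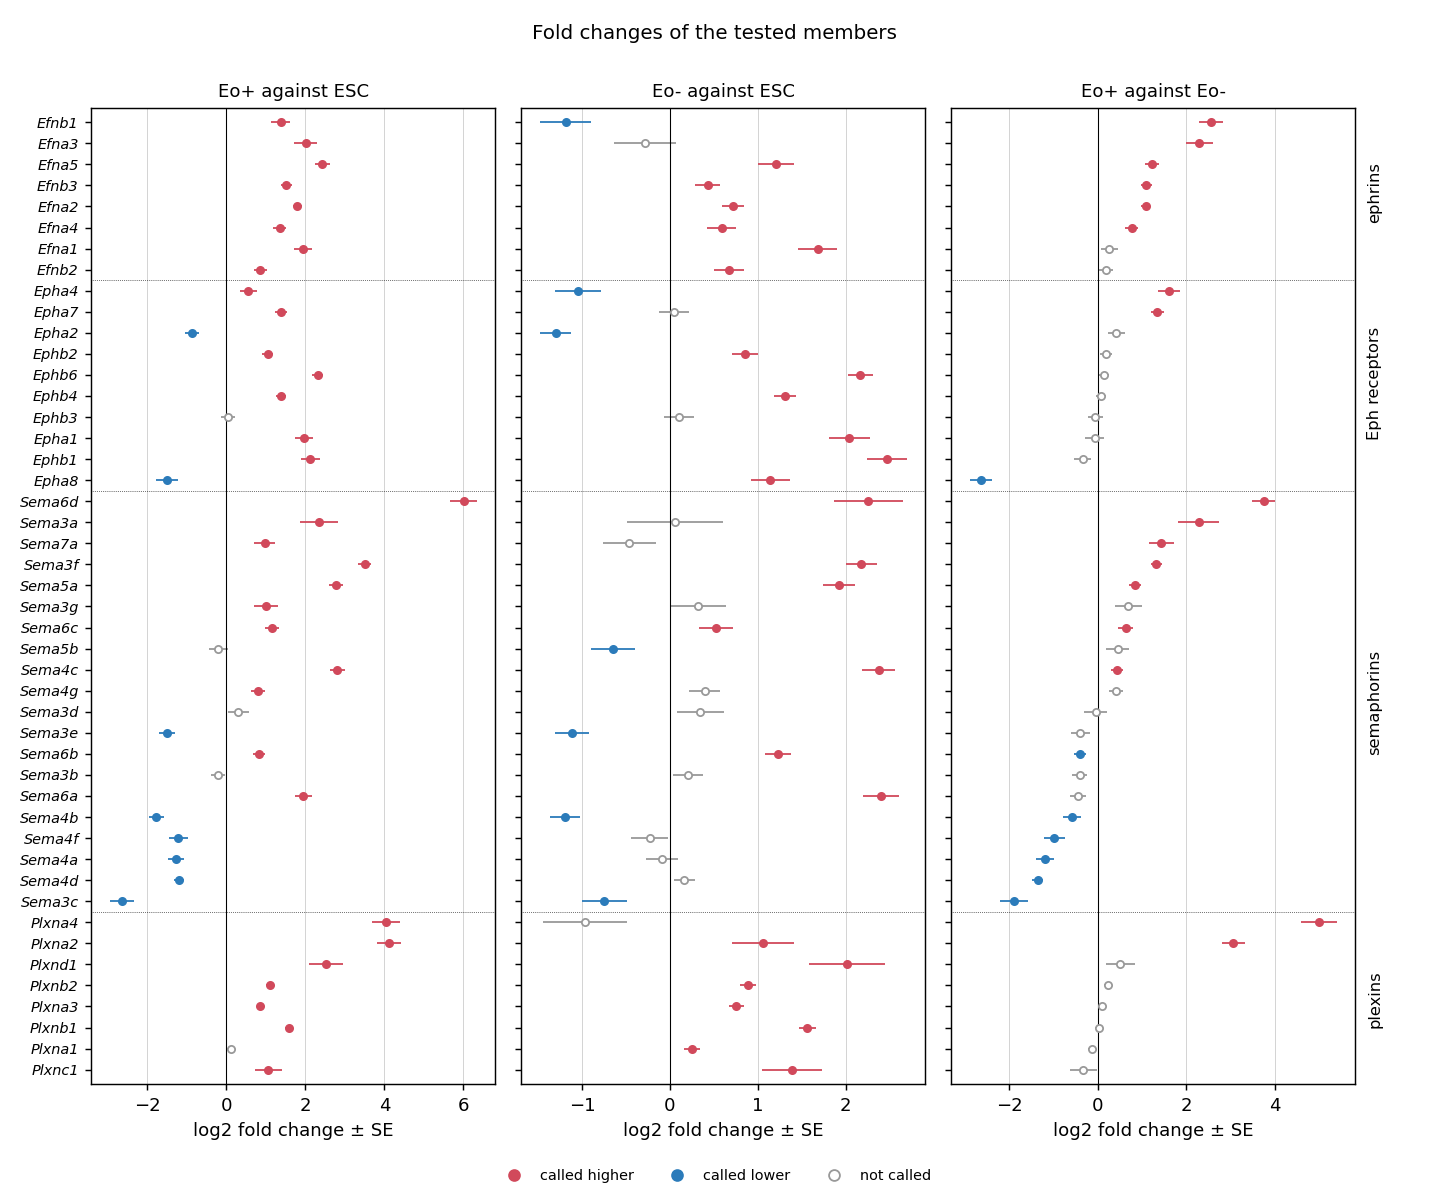
Log2 fold change ± SE (horizontal axis) of the 46 tested members in the 3 comparisons, ordered within each family by the difference between the fractions; red and blue points were called higher and lower and open points were not called. In Eo+ against ESC all 8 ephrins and 7 of 8 tested plexins lie to the right of 0 as called points, while semaphorins lie on both sides.

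Ephrins. All 8 ephrins rose in Eo+ cells relative to ESCs, and their summed level increased from 33.3 ± 6.46 FPKM in ESC to 46.4 ± 3.59 in Eo- and 97.3 ± 12.5 in Eo+ (SD, n = 4 each). The ephrin sum in Eo+ libraries, 81.0 to 108 FPKM, lay above that of Eo- libraries, 41.9 to 50.1 FPKM. In Eo- cells 6 ephrins rose and 1, Efnb1, fell relative to ESCs, and between the fractions 6 ephrins were higher in Eo+ and the other 2, Efna1 and Efnb2, were not called. Over all tested loci 35.8% were called higher in Eo+ and 30.9% in Eo- against ESC, and 23.0% in Eo+ against Eo-. Log2 fold changes are given below with their standard error and the limma adjusted p.

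Efnb1, a transmembrane ligand best known from boundary formation in the embryo, moved in opposite directions. It read 9.75, 11.1, 8.96 and 6.48 CPM in ESC replicates 1, 2, 5 and 6. The Eo- replicates held 5.66, 4.16, 2.75 and 3.64 CPM and the Eo+ replicates 27.1, 25.9, 14.8 and 27.6 CPM. Every Eo- library lay below and every Eo+ library above all ESC libraries, with replicate 5 the lowest of each day 3 fraction. The log2 fold change was 1.37 ± 0.23 in Eo+ against ESC (adjusted p = 0.000109) and -1.18 ± 0.29 in Eo- against ESC (adjusted p = 0.00303). Eo+ was 5.88-fold above Eo-, a log2 fold change of 2.56 ± 0.27 (adjusted p = 6.56e-06).

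Efna1, Efna3 and Efna4 lie side by side on the minus strand of chromosome 3, between positions 89271719 and 89338028 of mm10, and did not move alike. Efna3 held 14.9, 16.2, 14.5 and 8.40 CPM in ESC, 10.6, 13.3, 8.73 and 11.2 CPM in Eo- and 41.6, 80.3, 33.3 and 72.2 CPM in Eo+. Its Eo+ libraries lay above all others, with replicates 2 and 6 the highest, while ESC and Eo- libraries overlapped. It was higher in Eo+ than in Eo- by 2.29 ± 0.30 (adjusted p = 4.73e-05), and the change in Eo- against ESC, -0.28 ± 0.35, was not called (adjusted p = 0.495).

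Efna1 gave the reverse arrangement, a rise in both fractions with no called difference between them. ESC libraries held 2.67, 2.43, 2.78 and 1.89 CPM, Eo- libraries 12.1, 7.66, 5.87 and 6.60 CPM and Eo+ libraries 9.73, 9.54, 8.47 and 9.67 CPM. The fractions overlapped, with Eo- replicate 1 the highest of all. The rise was 1.94 ± 0.22 in Eo+ (adjusted p = 2.65e-06) and 1.68 ± 0.22 in Eo- (adjusted p = 2.15e-05), and the difference of 0.26 ± 0.18 was not called (adjusted p = 0.263). Without Eo- replicate 1, the library with most endothelial marker RNA of its group, the difference became 0.49 with an adjusted p of 0.00959. The part of the endothelial markers in this value was not tested.

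Efna4 had the highest FPKM of the ephrins in every group, at 10.01 ± 2.74 FPKM in ESC, 14.8 ± 1.29 in Eo- and 25.1 ± 1.98 in Eo+ (SD, n = 4). In CPM its ESC libraries held 18.0, 16.9, 19.5 and 9.63, its Eo- libraries 21.8, 26.5, 22.6 and 23.5 and its Eo+ libraries 37.1, 40.7, 38.1 and 44.2. The 3 groups formed 3 separate steps. The rise was 0.59 ± 0.17 in Eo- (adjusted p = 0.00746) and 1.35 ± 0.16 in Eo+ (adjusted p = 4.05e-06).

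Efna2, Efna5 and Efnb3 rose in the same stepwise order. Efna5, a ligand studied in retinal mapping, was 4.75, 5.58, 6.33 and 2.57 CPM in ESC, 11.1, 10.1, 11.4 and 9.90 CPM in Eo- and 23.4, 25.3, 27.7 and 22.5 CPM in Eo+. No library of these groups overlapped another group. The rise was 1.20 ± 0.20 in Eo- (adjusted p = 0.000179) and 2.42 ± 0.19 in Eo+ (adjusted p = 7.87e-08), the largest among ephrins in that comparison. Efna2 rose by 0.72 ± 0.13 and 1.80 ± 0.12 in the same comparisons, and Efnb3 by 0.43 ± 0.14 and 1.52 ± 0.13. The smaller Efnb3 rise in Eo- was no longer called without Eo- replicate 1 (adjusted p = 0.0623).

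Efnb2, the ligand that marks arterial endothelium and also occurs in somites, was 27.6, 25.8, 35.0 and 20.7 CPM in ESC, 48.1, 39.9, 40.1 and 44.1 CPM in Eo- and 65.3, 38.6, 49.6 and 45.1 CPM in Eo+. Both fractions lay above ESC and overlapped each other. It rose by 0.86 ± 0.17 in Eo+ (adjusted p = 0.000375) and by 0.67 ± 0.17 in Eo- (adjusted p = 0.00322), and the difference of 0.18 ± 0.16 was not called (adjusted p = 0.354).

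**Figure D2:**
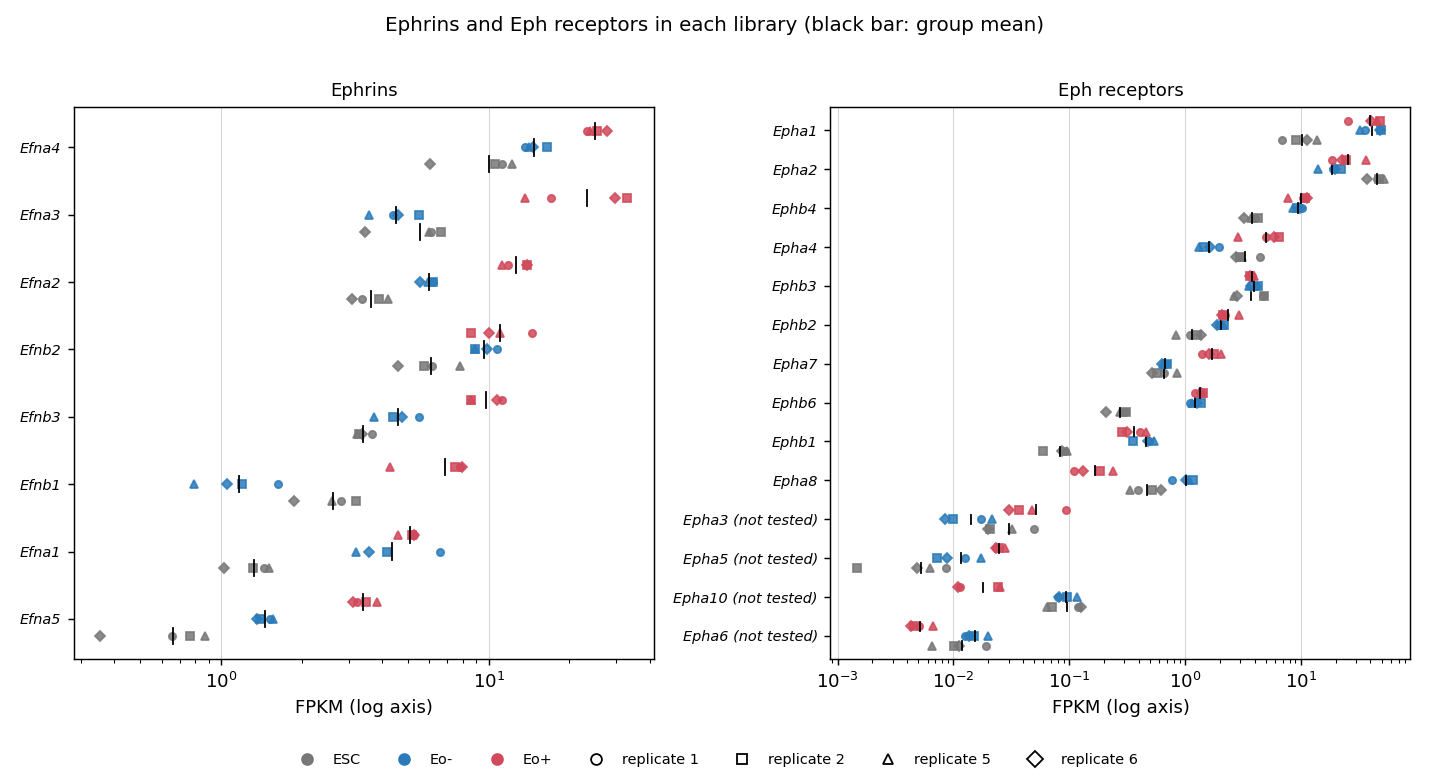
FPKM (log axis) of each ephrin and Eph receptor in each of the 12 libraries, with groups in colour, replicates by shape and black bars for group means. Efna4 is the highest ephrin in Eo+ at a mean of 25.1 FPKM, Epha2 falls from 45.8 FPKM in ESC, and 4 EphA receptors marked as not tested lie at the low end.

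Eph receptors. Of 14 receptors, 10 were tested. In Eo+ against ESC 7 were higher and 2 lower, in Eo- against ESC 6 were higher and 2 lower, and in Eo+ against Eo- 2 were higher and 1 lower. Over all tested loci 35.8%, 30.9% and 23.0% were called higher in these comparisons, and 36.1%, 31.3% and 24.7% lower. The 3 receptors called between the fractions were all of the EphA class. In the same fit by limma none of the 5 EphB receptors was called in Eo+ against Eo-, where 0 of 5 reached an unadjusted p under 0.05, and edgeR and DESeq2 also called 0. Limma called 1, Ephb1, with the replicate block (adjusted p = 0.041) and with sample quality weights (-0.50, adjusted p = 0.0105).

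The abundant EphA receptor changed from Epha2 to Epha1. Epha2 held 218, 224, 249 and 179 CPM in ESC, 89.6, 105, 66.9 and 93.9 CPM in Eo- and 87.9, 116, 172 and 109 CPM in Eo+. All day 3 libraries lay below ESC, with Eo+ replicate 5 the nearest to them. Epha2 fell by 1.30 on the log2 scale in Eo- (SE 0.18, adjusted p = 3.27e-05) and by 0.88 in Eo+ (SE 0.18, adjusted p = 0.00052). Its difference between the fractions, 0.42 ± 0.19, was not called (adjusted p = 0.0773), and without Eo+ replicate 1 it was 0.57 with an adjusted p of 0.0193. It was also called by DESeq2 (0.45, adjusted p = 0.0399), with sample quality weights (0.32, adjusted p = 0.0428) and with loci of any class tested (0.48, adjusted p = 0.0485).

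Epha1, a receptor found in epithelia, held 31.1, 40.7, 61.5 and 50.8 CPM in ESC. It reached 161, 220, 147 and 216 CPM in Eo- and 116, 217, 203 and 182 CPM in Eo+. The fractions overlapped and both lay above ESC. The rise was 1.97 ± 0.23 in Eo+ (adjusted p = 3.83e-06) and 2.04 ± 0.23 in Eo- (adjusted p = 5.40e-06). In FPKM, Epha2 made up 75.5% ± 3.49 of the EphA sum in ESC, 29.5% ± 2.10 in Eo- and 35.1% ± 5.16 in Eo+, while Epha1 made up 16.9% ± 4.29, 65.0% ± 2.48 and 54.8% ± 4.07 (SD, n = 4). The EphA sum itself was 60.6 ± 7.32, 63.6 ± 11.4 and 72.6 ± 15.8 FPKM, with overlapping ranges.

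Epha4, a receptor that binds both ephrin classes, read 36.9, 24.4, 25.5 and 22.8 CPM in ESC, 16.1, 12.1, 10.8 and 13.6 CPM in Eo- and 41.0, 53.6, 23.7 and 48.3 CPM in Eo+. Eo- libraries lay below all others, and Eo+ overlapped ESC through replicate 5. It was higher in Eo+ than in Eo- by 1.61 ± 0.25 (adjusted p = 0.000181) and lower in Eo- than in ESC by a log2 change of -1.05 ± 0.26 (adjusted p = 0.00333). The rise of 0.56 ± 0.22 in Eo+ against ESC had an adjusted p of 0.038. That call was lost on leaving out ESC replicate 2 (0.0891), 5 (0.0786) or 6 (0.0966), or Eo+ replicate 1 (0.0625), 2 (0.111) or 6 (0.0908), each value being the adjusted p.

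Epha7 and Epha8, receptors studied mainly in the nervous system, went opposite ways in Eo+ cells. Epha7 was 6.59, 5.74, 8.55 and 5.17 CPM in ESC, 6.76, 6.95, 6.47 and 6.34 CPM in Eo- and 14.0, 17.8, 20.3 and 15.9 CPM in Eo+, so that Eo+ libraries alone stood above the rest. Epha8 was 1.87, 2.44, 1.60 and 2.92 CPM in ESC, 3.66, 5.52, 5.12 and 4.83 CPM in Eo- and 0.519, 0.880, 1.13 and 0.626 CPM in Eo+. Its 3 groups did not overlap, with Eo- highest and Eo+ lowest. The difference between Eo+ and Eo- was 1.34 ± 0.15 for Epha7 (adjusted p = 1.21e-05) and -2.64 ± 0.26 for Epha8 (adjusted p = 3.93e-06). Epha8 rose by 1.14 ± 0.22 in Eo- and had a log2 fold change of -1.50 ± 0.27 in Eo+, both against ESC (adjusted p = 0.000546 and 0.000219).

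Among EphB receptors, Ephb1, Ephb2, Ephb4 and Ephb6 rose in both fractions and Ephb3 was called in neither. Ephb4, which marks veins and is the partner of Efnb2, held 37.5, 39.2, 34.7 and 29.6 CPM in ESC, 95.1, 85.7, 78.8 and 90.6 CPM in Eo- and 95.8, 101, 71.4 and 105 CPM in Eo+. Both fractions stood clear of ESC and overlapped each other. It rose by 1.31 ± 0.13 and 1.39 ± 0.13 (adjusted p = 1.22e-06 and 2.94e-07). Ephb6, whose kinase domain is inactive, rose by 2.17 ± 0.14 in Eo- and 2.31 ± 0.14 in Eo+.

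Ephb1 had the largest rise of all members in Eo- against ESC, from 0.680, 0.440, 0.700 and 0.640 CPM to 3.58, 2.60, 3.94 and 3.50 CPM. Its Eo+ libraries held 2.997, 2.11, 3.37 and 2.31 CPM, overlapping Eo-. The log2 fold change was 2.47 ± 0.23 in Eo- (adjusted p = 8.50e-07) and 2.13 ± 0.23 in Eo+ (adjusted p = 1.78e-06). The difference between the fractions, -0.34 ± 0.19, was not called (adjusted p = 0.148), but with the replicate block it was called (-0.34, adjusted p = 0.041). The Ephb1 locus also holds a second annotated transcript unit, RP23-462C14.2, whose counts cannot be split from it. The EphB sum was 9.08 ± 1.66 FPKM in ESC, 17.1 ± 0.869 in Eo- and 17.9 ± 1.01 in Eo+, and the fractions overlapped.

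Semaphorins. All 20 semaphorins were tested, and they were called in both directions in each comparison. In Eo+ against ESC 11 were higher and 6 lower, in Eo- against ESC 7 were higher and 4 lower, and in Eo+ against Eo- 7 were higher and 6 lower. With counts scaled to library totals instead, 7 were higher and 7 lower in the last comparison. In the main fit 35.8%, 30.9% and 23.0% of all tested loci were called higher in the 3 comparisons, and 36.1%, 31.3% and 24.7% lower.

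In class 3, the secreted ligands, Sema3e gave way to Sema3f. Sema3f, which signals through Nrp2, held 5.21, 4.07, 3.92 and 3.21 CPM in ESC, 19.1, 21.3, 14.5 and 19.2 CPM in Eo- and 46.5, 48.2, 39.6 and 50.2 CPM in Eo+. The groups formed 3 separate steps. The rise was 2.18 ± 0.17 in Eo- (adjusted p = 2.76e-07) and 3.50 ± 0.17 in Eo+ (adjusted p = 1.06e-09), with 1.32 ± 0.12 between the fractions (adjusted p = 2.48e-06).

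Sema3e, which binds Plxnd1 directly, held 23.6, 25.7, 37.4 and 28.8 CPM in ESC, 12.5, 12.6, 14.4 and 13.3 CPM in Eo- and 7.99, 9.11, 17.0 and 8.16 CPM in Eo+. Both fractions lay below ESC, and Eo+ replicate 5 lay above all Eo- libraries while the other 3 lay below them. The log2 fold change was -1.51 ± 0.20 in Eo+ (adjusted p = 1.46e-05) and -1.11 ± 0.19 in Eo- (adjusted p = 0.000194). Between the fractions it was -0.39 ± 0.22 (adjusted p = 0.159), and without Eo+ replicate 5 it became -0.64 with an adjusted p of 0.0092. Sema3e made up 43.0% ± 6.22 of the class 3 FPKM in ESC and 5.66% ± 2.51 in Eo+, against 20.1% ± 4.02 and 80.0% ± 6.47 for Sema3f.

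Sema3c, a ligand required for septation of the cardiac outflow tract, was the member with the largest fall in Eo+ against ESC. It went from 6.52, 5.29, 7.83 and 4.75 CPM in ESC to 3.27, 2.88, 4.39 and 4.05 CPM in Eo- and 0.991, 0.608, 2.06 and 0.687 CPM in Eo+, and no groups overlapped. The log2 fold change was -2.65 ± 0.30 in Eo+ against ESC (adjusted p = 3.12e-06) and -1.90 ± 0.32 in Eo+ against Eo- (adjusted p = 0.000277). The fall in Eo-, -0.75 ± 0.25, had an adjusted p of 0.0202, and was not called without ESC replicate 5 (0.0611) or Eo- replicate 2 (0.0624). Without ESC replicates 1 and 5, which held most fibroblast marker RNA, it was -0.48 with an adjusted p of 0.198.

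Sema3a, the classical repellent ligand of Nrp1, was 3.22, 1.02, 1.92 and 0.812 CPM in ESC, 3.24, 1.16, 1.43 and 1.16 CPM in Eo- and 13.6, 3.87, 9.80 and 6.82 CPM in Eo+. Replicates 1 and 5 were the highest of ESC, as for the fibroblast markers, and replicate 1 the highest of both day 3 fractions, as for the endothelial markers. The part of these cell types in its level was not tested. Sema3a was higher in Eo+ than in ESC by 2.34 ± 0.48 (adjusted p = 0.000569) and than in Eo- by 2.28 ± 0.47 (adjusted p = 0.0014). Sema3b and Sema3d were called in no comparison, though without Eo+ replicate 5 Sema3b was lower in Eo+ than in Eo- by a log2 change of -0.58 (adjusted p = 0.00607) and than in ESC by -0.38 (adjusted p = 0.0392). Sema3g rose by 1.01 ± 0.31 in Eo+ against ESC (adjusted p = 0.00927), at a locus joined to Tnnc1, the gene of cardiac troponin C, so its share of those counts is unknown. Between the fractions Sema3g was not called (0.69, adjusted p = 0.0721), but it was without Eo- replicate 1 (0.94, adjusted p = 0.0191) or Eo+ replicate 2 (0.94, adjusted p = 0.0138).

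**Figure D3:**
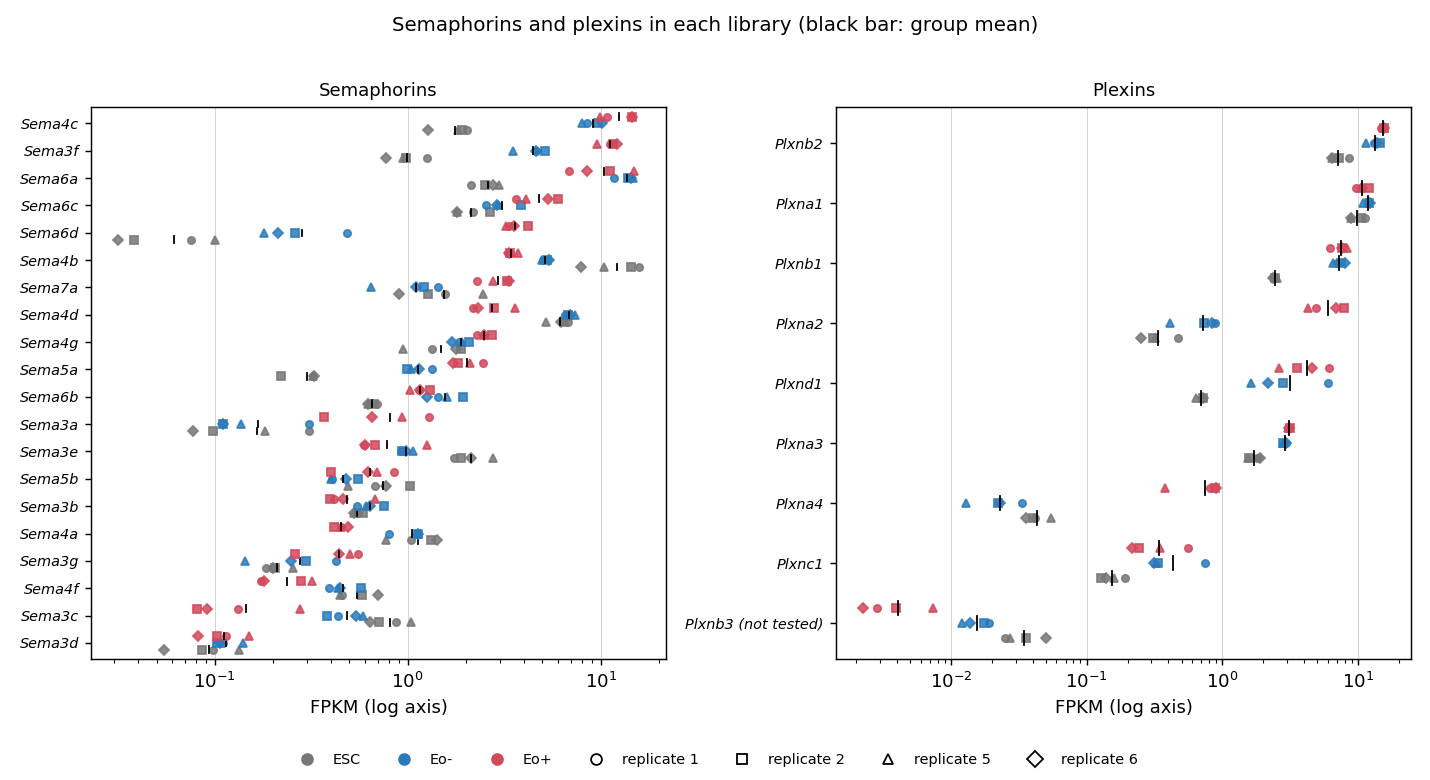
FPKM (log axis) of each semaphorin and plexin in each of the 12 libraries, with groups in colour, replicates by shape and black bars for group means. Sema6d and Plxna4 show the widest separation of Eo+ from the rest, Sema3c, Sema4b, Sema4d and Sema4a lie lower in Eo+, and Plxnb3 was not tested.

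Among the membrane-bound classes, Sema6d had the largest rise of all members in Eo+ against ESC. Sema6d is known from heart morphogenesis, where it acts through Plxna1. It held 0.884, 0.450, 1.18 and 0.369 CPM in ESC, 5.73, 3.06, 2.11 and 2.49 CPM in Eo- and 39.3, 49.7, 38.1 and 41.9 CPM in Eo+. The groups did not overlap, and Eo- replicate 1 was the highest of its group. The Eo+ level was 64.3-fold that of ESC, a log2 fold change of 6.01 ± 0.34 (adjusted p = 4.67e-09), and the Eo+ against Eo- difference was 3.75 ± 0.26 (adjusted p = 2.62e-07).

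Sema6a, a ligand of Plxna2 and Plxna4, was the semaphorin with the highest FPKM in Eo- cells, at 13.6 FPKM. It held 21.9, 25.8, 30.7 and 28.6 CPM in ESC, 120, 142, 151 and 148 CPM in Eo- and 70.8, 115, 153 and 87.4 CPM in Eo+. Eo+ replicate 5 was the highest library of all, while the other 3 Eo+ libraries lay below every Eo- library. The rise was 2.40 ± 0.21 in Eo- (adjusted p = 5.40e-07) and 1.95 ± 0.21 in Eo+ (adjusted p = 1.74e-06). The difference of -0.45 ± 0.18 was not called (adjusted p = 0.055), and with the replicate block it was called (-0.44, adjusted p = 0.0126). Without Eo+ replicate 5 it was -0.64 (adjusted p = 0.00299), and without Eo- replicate 1 it was -0.52 (adjusted p = 0.0442).

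Sema4c, a ligand of Plxnb2, was the semaphorin with the highest FPKM in Eo+ cells. It held 9.55, 9.05, 8.61 and 6.03 CPM in ESC, 40.3, 45.6, 38.0 and 47.9 CPM in Eo- and 50.7, 68.3, 46.6 and 69.0 CPM in Eo+. Both fractions stood far above ESC and overlapped each other. The rise was 2.37 ± 0.19 in Eo- (adjusted p = 2.27e-07) and 2.81 ± 0.18 in Eo+ (adjusted p = 1.66e-08). The difference between fractions, 0.43 ± 0.14 (adjusted p = 0.0182), was not called without Eo- replicate 5 (0.0559) or Eo+ replicate 2 (0.0537) or 6 (0.0536).

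Sema4b had the highest FPKM of the semaphorins in ESC and fell in both fractions. ESC libraries held 88.7, 80.5, 58.1 and 44.3 CPM, Eo- libraries 28.2, 29.5, 27.7 and 29.98 CPM and Eo+ libraries 18.5, 18.9, 20.9 and 18.8 CPM. The 3 groups did not overlap. The log2 fold change was -1.78 ± 0.19 in Eo+ (adjusted p = 1.54e-06) and -1.19 ± 0.18 in Eo- (adjusted p = 5.39e-05). Between the fractions it was -0.58 ± 0.20 (adjusted p = 0.0285), which rose to between 0.0578 and 0.0616 on leaving out Eo- replicate 2 or 6 or Eo+ replicate 1, 2 or 6.

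Sema4d, Sema4a and Sema4f fell in Eo+ cells and were not called in Eo- against ESC. Sema4d, the ligand of Plxnb1, was 43.7, 41.6, 33.6 and 40.4 CPM in ESC, 42.3, 43.5, 47.4 and 44.9 CPM in Eo- and 14.1, 18.2, 23.2 and 15.0 CPM in Eo+. The Eo+ libraries stood below all others. Eo+ differed from ESC by -1.20 ± 0.13 (adjusted p = 2.37e-06) and from Eo- by -1.36 ± 0.13 (adjusted p = 3.93e-06).

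Sema4a, known from immune cells, was 5.61, 7.17, 4.18 and 7.63 CPM in ESC, 4.32, 6.12, 6.14 and 6.10 CPM in Eo- and 2.45, 2.24, 2.46 and 2.67 CPM in Eo+. Eo+ libraries again lay below the rest. The Eo+ against Eo- change was -1.19 ± 0.21 (adjusted p = 0.000361) for Sema4a and -0.99 ± 0.23 (adjusted p = 0.00334) for Sema4f. The Sema4a locus also contains a microRNA gene, Mir7011.

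Eo+ cells held more Sema5a, Sema6c and Sema7a than Eo- cells. Sema5a, a transmembrane ligand with thrombospondin repeats, was 3.69, 2.50, 3.67 and 3.73 CPM in ESC, 15.2, 11.3, 11.9 and 12.9 CPM in Eo- and 27.8, 20.6, 24.0 and 19.5 CPM in Eo+, in 3 separate steps. It rose by 1.93 ± 0.18 in Eo- and 2.77 ± 0.17 in Eo+ (adjusted p = 1.12e-06 and 1.21e-08). Sema7a, a ligand of Plxnc1 and integrins, was 4.88, 4.11, 2.19 and 3.75 CPM in Eo- and 7.74, 11.1, 9.39 and 11.4 CPM in Eo+, with all Eo+ libraries above, a difference of 1.44 ± 0.28 (adjusted p = 0.00084).

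Sema6c rose by 0.63 ± 0.17 between the fractions (adjusted p = 0.00855), with overlapping libraries. Sema6b was lower in Eo+ than in Eo- by a log2 change of -0.40 ± 0.14 (adjusted p = 0.0243), also with overlap, and its adjusted p reached 0.0766 without Eo- replicate 2. Leaving out Eo- replicate 5 (0.0567) or Eo+ replicate 1 (0.0528), 5 (0.0619) or 6 (0.051) likewise ended that call. Sema4g was higher in every Eo+ than in every Eo- library, with a difference of 0.41 ± 0.17 that was not called (adjusted p = 0.0565) and was called with the replicate block (0.41, adjusted p = 0.04). In Eo- against ESC, the call for Sema5b, -0.65 ± 0.25 (adjusted p = 0.0374), was lost without ESC replicate 1, 2 or 6 or Eo- replicate 1, 5 or 6, with adjusted p from 0.054 to 0.12. The call for Sema6c there, 0.53 ± 0.19 (adjusted p = 0.0294), was lost without ESC replicate 5 (0.0803) or 6 (0.0747) or Eo- replicate 2 (0.0942).

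Plexins. Of 9 plexins, 8 were tested. In each comparison with ESC 7 were called, all higher, beside 35.8% of all tested loci called higher in Eo+ and 30.9% in Eo-. Between the fractions 2 were called, Plxna2 and Plxna4, both higher in Eo+, beside 23.0% of all loci called higher and 24.7% lower. The plexin sum was 22.4 ± 2.24 FPKM in ESC, 39.3 ± 3.65 in Eo- and 47.6 ± 2.84 in Eo+ (SD, n = 4 each), and the ranges of the 3 groups did not overlap.

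Plxna4 was the member with the largest difference between the fractions. It is a receptor of Sema3a with neuropilin and of Sema6a without it. Its libraries held 0.558, 0.546, 0.731 and 0.485 CPM in ESC, 0.449, 0.300, 0.173 and 0.312 CPM in Eo- and 10.9, 11.8, 5.09 and 12.2 CPM in Eo+. Eo+ stood far above the rest, with replicate 5 the lowest of its group, and all Eo- libraries lay below all ESC libraries. Eo+ was above Eo- by 5.00 ± 0.40 (adjusted p = 9.10e-07) and above ESC by 4.04 ± 0.35 (adjusted p = 2.25e-07).

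The lower level of Plxna4 in Eo-, -0.96 ± 0.48 against ESC, was not called (adjusted p = 0.096). It was called with the replicate block (-0.92, adjusted p = 0.0189), by edgeR (-0.91, adjusted p = 0.0189) and without Eo+ replicate 5 (adjusted p = 0.00683). Levels per length were low in these groups, at 0.043 FPKM in ESC and 0.0229 FPKM in Eo-. Plxna4 passed the filter on low values through Eo+ alone (0.742 FPKM), the group where it is high, so that a difference was built into its being tested. Ephb1 and Sema6d likewise passed through the day 3 groups and not through ESC (0.0836 and 0.0612 FPKM).

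Plxna2, a receptor of Sema6a and Sema3 ligands, held 7.16, 4.65, 4.83 and 3.78 CPM in ESC, 13.3, 11.05, 6.20 and 12.6 CPM in Eo- and 73.6, 119, 64.0 and 104 CPM in Eo+. Eo+ libraries lay above all others and Eo- overlapped ESC through replicate 5. The rise in Eo+ was 4.12 ± 0.30 against ESC (adjusted p = 4.64e-08) and 3.07 ± 0.26 against Eo- (adjusted p = 1.25e-06). The rise in Eo-, 1.06 ± 0.35 (adjusted p = 0.0177), was no longer called without ESC replicate 6 (0.0503) or Eo- replicate 1 (0.05002). Plxna2 made up 1.49% ± 0.29 of the plexin FPKM in ESC and 12.4% ± 2.81 in Eo+.

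The other tested A and B plexins differed little between the fractions. Plxnb2, the plexin with the highest FPKM in both fractions, was 63.5, 54.2, 48.0 and 47.9 CPM in ESC, 97.4, 108, 85.9 and 103 CPM in Eo- and 110, 117, 116 and 116 CPM in Eo+. Every Eo+ library lay above every Eo- library, by 0.22 ± 0.09 (adjusted p = 0.0562), a difference that was called with the replicate block (0.22, adjusted p = 0.0462). Plxnb1 rose by 1.56 ± 0.10 in Eo- and 1.59 ± 0.10 in Eo+ against ESC, and Plxna3 by 0.76 ± 0.08 and 0.86 ± 0.08.

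Plxna1 had the highest FPKM of the plexins in ESC, 9.85 ± 1.15 (SD, n = 4), and made up 44.0% ± 1.25 of the plexin sum there and 22.4% ± 1.30 in Eo+. Its level was 81.3 to 102 CPM in ESC, 99.3 to 112 CPM in Eo- and 87.5 to 110 CPM in Eo+, which overlap. It was not called in Eo+ against ESC (0.11 ± 0.09, adjusted p = 0.268). The call in Eo- against ESC, 0.25 ± 0.09 (adjusted p = 0.0225), was lost without ESC replicate 5 (0.069) or 6 (0.065) or Eo- replicate 6 (0.0596).

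Plxnd1, the plexin of endothelial cells, held 5.15, 5.14, 4.63 and 5.14 CPM in ESC, 42.8, 20.1, 11.7 and 15.7 CPM in Eo- and 43.5, 25.2, 18.6 and 32.9 CPM in Eo+. Replicate 1 was the highest of both fractions, replicate 5 the lowest, and the fractions overlapped. The rise was 2.01 ± 0.43 in Eo- (adjusted p = 0.00114) and 2.52 ± 0.42 in Eo+ (adjusted p = 0.000105). The difference was 0.51 ± 0.32 (adjusted p = 0.214), and without Eo- replicate 1, where the Eo- mean goes from 22.6 to 15.8 CPM, it was 0.89 with an adjusted p of 0.0116. Fitted on the 8 day 3 libraries alone with the replicate block it was 0.47 (adjusted p = 0.0269).

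Plxnc1, the receptor of Sema7a, was 1.86, 1.23, 1.53 and 1.34 CPM in ESC, 7.17, 3.22, 3.10 and 3.04 CPM in Eo- and 5.37, 2.35, 3.35 and 2.08 CPM in Eo+. It rose by 1.39 ± 0.34 in Eo- (adjusted p = 0.00307) and 1.07 ± 0.35 in Eo+ (adjusted p = 0.0149), with replicate 1 highest of both fractions. The difference between the fractions, -0.33 ± 0.32, was not called (adjusted p = 0.419), and on the 8 day 3 libraries with the replicate block it was called (-0.33, adjusted p = 0.0442).

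The same replicates held most endothelial marker RNA. The summed list was 195, 66.8, 33.1 and 56.2 CPM in Eo- replicates 1, 2, 5 and 6 and 419, 267, 107 and 399 CPM in Eo+. Of its defining markers, Cdh5, the cadherin of endothelial junctions, was 40.9, 6.78, 2.96 and 6.47 CPM in Eo-, 17.8, 1.39, 2.94 and 3.43 CPM in Eo+ and at or under 0.533 CPM in ESC. Tie1, an endothelial receptor kinase, was 29.3 CPM in Eo- replicate 1 and 2.26 to 6.67 CPM in the other Eo- libraries. Other markers differed from these in their level relative to ESC. Pecam1, an adhesion molecule also present in ESCs, was 30.4 to 57.9 CPM in ESC, 9.54 to 32.4 CPM in Eo- and 0.897 to 9.12 CPM in Eo+, and was called lower in both fractions. Tek, the angiopoietin receptor, was 5.90 to 9.26 CPM in ESC and was called in no comparison, with 17.5 CPM in Eo- replicate 1 and 14.1 CPM in Eo+ replicate 1. Both were highest in replicate 1 of each fraction, whereas Etv2, an early endothelial transcription factor, was 8.53, 13.7, 7.08 and 11.4 CPM in Eo- and 46.1, 84.5, 22.8 and 108 CPM in Eo+, with replicate 1 the highest of neither. Against ESC, 4 of the 7 markers were called higher and 1 lower in each fraction. The list rested on Kdr in Eo+ (74.0 to 302 CPM), a receptor also present in early mesoderm. The part of endothelial cells in the levels of Plxnd1, Plxnc1 and Sema3a was not tested.

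**Figure D4:**
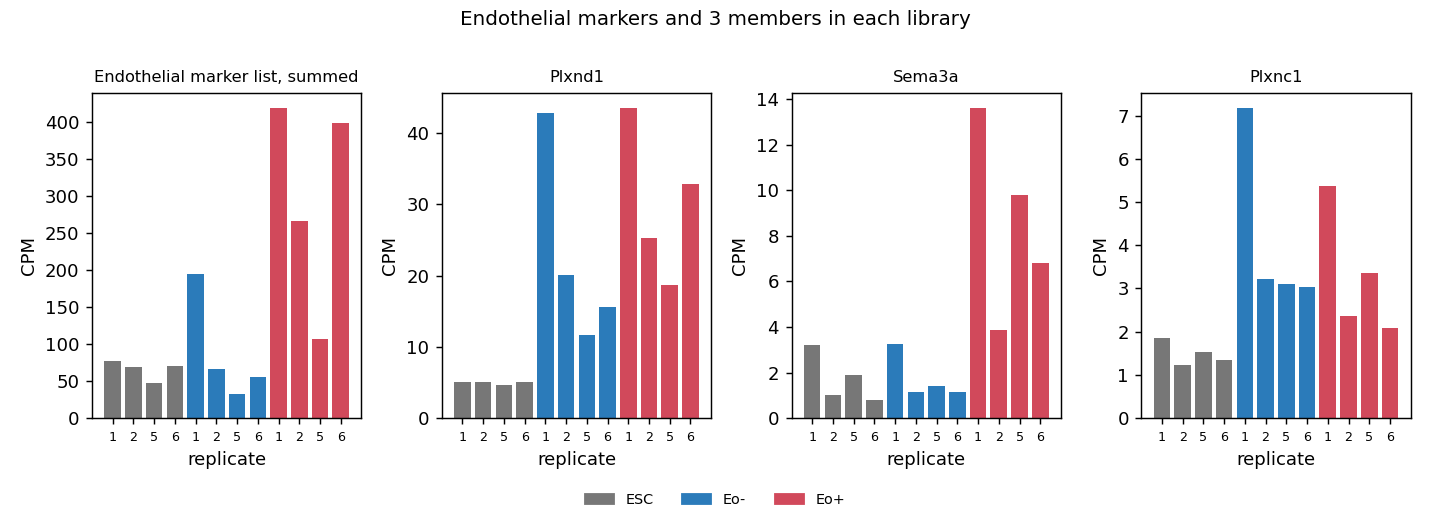
CPM (vertical axes from 0) of the summed endothelial marker list, Plxnd1, Sema3a and Plxnc1 in each of the 12 libraries, with bars coloured by group and numbered by replicate. Eo- replicate 1 holds 195 CPM of the list, 42.8 CPM of Plxnd1, 3.24 CPM of Sema3a and 7.17 CPM of Plxnc1, each the highest of the 4 Eo- libraries.

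Known ligand and receptor pairs can be read side by side. Sema3e fell and its receptor Plxnd1 rose in both fractions. Sema4d was lower in Eo+ than in Eo- cells, where its receptor Plxnb1 did not pass the test (0.03 ± 0.09, adjusted p = 0.824). Sema4c and its receptor Plxnb2 both rose in both fractions, as did Efnb2 and Ephb4. Sema6a was called higher in both fractions, while Plxna4 was called higher in Eo+ and not called in Eo- against ESC.

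Over the 3 comparisons together, 10 members rose in both fractions and were higher still in Eo+, namely Efna2, Efna4, Efna5, Efnb3, Sema3f, Sema4c, Sema5a, Sema6c, Sema6d and Plxna2, and 10.5% of all tested loci had this pattern. A rise in both fractions without a called difference between them was found for 13 members, among them Ephb1, Ephb2, Ephb4 and Ephb6, and for 12.4% of all tested loci. With the replicate block Ephb1, Plxnb2 and Sema6a were called between the fractions and leave this pattern. Opposite calls in the fractions against ESC occurred at 3 members, Efnb1 and Epha4, higher in Eo+ and lower in Eo-, and Epha8, the reverse. The Epha4 call in Eo+ against ESC was lost in 9 of 23 alternative settings. The same calls in all comparisons were made at 0.419% of the loci in the order of Efnb1 and Epha4 and at 1.14% in that of Epha8. The calls against ESC share those libraries. No call was made in any comparison for 3 members, Ephb3, Sema3b and Sema3d, and for 16.7% of the loci.

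**Figure D5:**
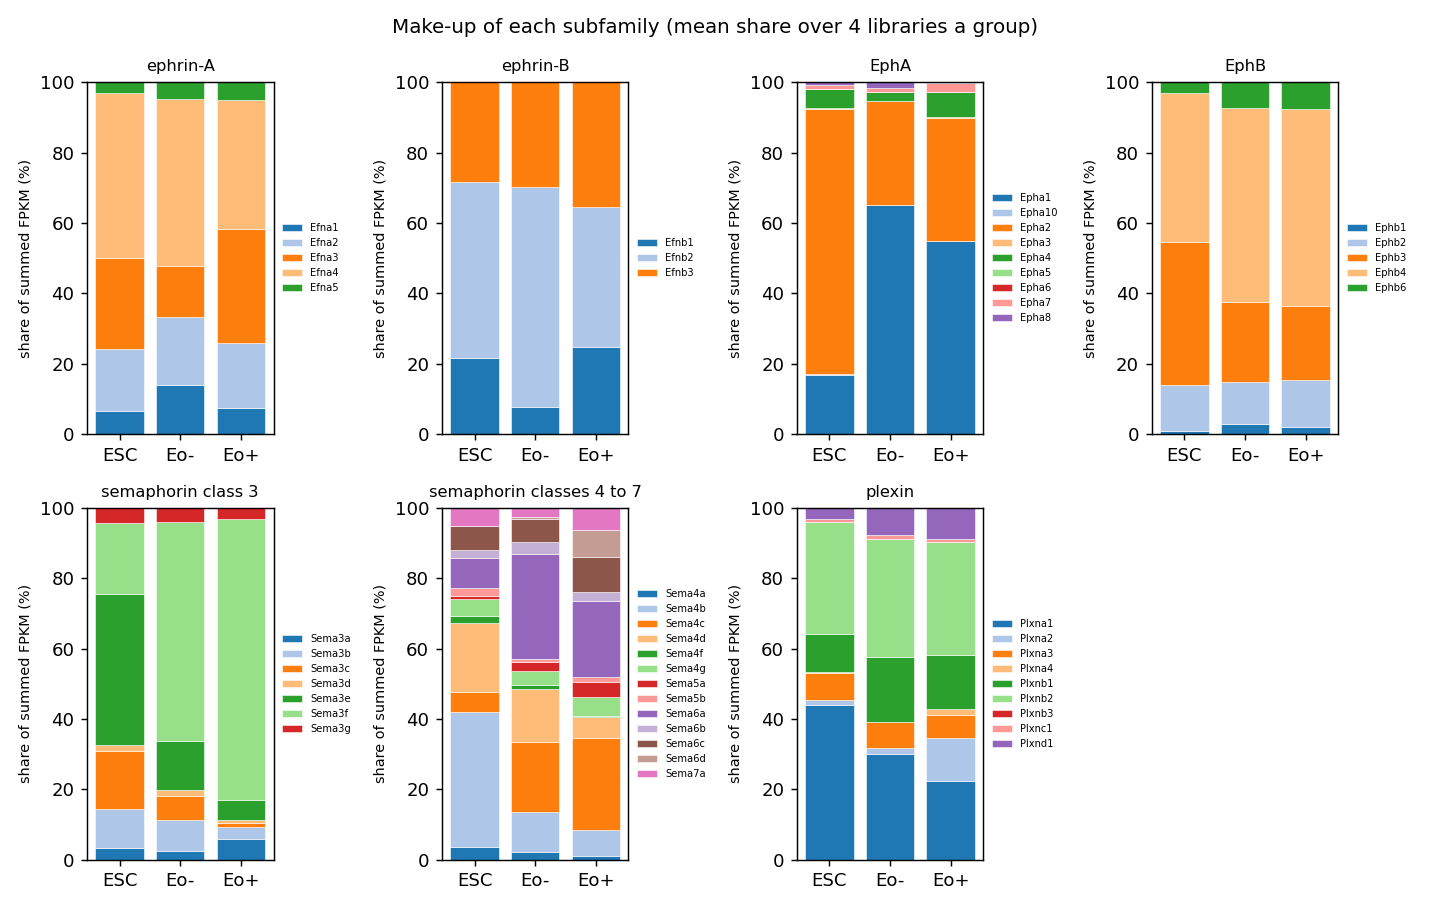
Share of each gene (percent of the summed FPKM of its subfamily, mean over 4 libraries) in ESC, Eo- and Eo+. Epha2 gives way to Epha1 (75.5% and 16.9% in ESC, 35.1% and 54.8% in Eo+), and Sema3e to Sema3f (43.0% and 20.1% in ESC, 5.66% and 80.0% in Eo+).

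Co-receptors and signalling partners were read from lists of 53 genes on the pathways of both systems, of which 52 were tested. In Eo+ against ESC 37 were higher and 5 lower, in Eo- against ESC 28 were higher and 8 lower, and in Eo+ against Eo- 26 were higher and 7 lower. Over all tested loci 71.9%, 62.2% and 47.7% were called in these comparisons (35.8%, 30.9% and 23.0% higher, 36.1%, 31.3% and 24.7% lower). The lists were not tested as sets and were chosen with earlier results known, so nothing particular to them is read from the counts. Nrp1, the neuropilin that Sema3a uses, held 11.8, 4.31, 11.2 and 3.52 CPM in ESC, 16.5, 3.70, 3.17 and 4.59 CPM in Eo- and 130, 40.5, 53.5 and 72.1 CPM in Eo+. Eo+ libraries lay above all others, replicate 1 was the highest of both fractions and replicates 1 and 5 the highest of ESC. The Eo+ against Eo- difference was 3.60 (adjusted p = 0.00012) and the largest rise in these lists. The Nrp1 locus also holds the microRNA gene Mir1903.

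Nrp2, the co-receptor of Sema3f, was 33.4, 34.4, 28.4 and 17.8 CPM in ESC, 38.2, 18.8, 8.42 and 22.1 CPM in Eo- and 96.4, 112, 33.6 and 143 CPM in Eo+. Eo+ replicate 5 fell within the ESC and Eo- ranges and the other 3 lay above. Nrp2 was higher in Eo+ than in Eo- by 2.13 (adjusted p = 0.00227) and than in ESC by 1.60 (adjusted p = 0.00532). Neither neuropilin was called in Eo- against ESC, with adjusted p = 0.713 for Nrp1 and 0.392 for Nrp2.

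Of 19 plexin effectors, 10 rose and 2 fell in Eo+ against ESC, where 35.8% of all tested loci were called higher and 36.1% lower. Dpysl5 and Dpysl2, collapsin response mediators that act on microtubules, rose in both fractions and were higher in Eo+ than in Eo- by 1.01 and 0.36 (adjusted p = 5.39e-05 and 0.00433). Farp1, a guanine nucleotide exchange factor that binds A plexins, rose by 1.82 in Eo+ (adjusted p = 1.41e-08). Rnd1, a small GTPase that plexins bind, fell by 2.50 in Eo+ and by 1.83 in Eo- on the log2 scale (adjusted p = 3.07e-07 and 6.00e-06).

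Mical2, an oxidoreductase acting on actin, had the largest fall in these lists against ESC in both fractions. It was 9.63, 4.46, 8.35 and 3.06 CPM in ESC, 1.70, 0.602, 0.715 and 0.659 CPM in Eo- and 1.13, 0.238, 0.587 and 0.302 CPM in Eo+. Day 3 libraries lay below ESC, and its ESC level was highest in replicates 1 and 5, which held 269 and 214 CPM of fibroblast markers against 131 and 110 CPM in replicates 2 and 6. The part of feeder cells in this fall was not tested. Mical2 passed the filter on low values through ESC alone, the group where it is high, so that a difference was built into its being tested. Between the fractions Mical2 was not called (-0.83, adjusted p = 0.275) but was called with the replicate block (-0.77, adjusted p = 0.0196).

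Of 24 genes of Eph and ephrin signalling, 20 rose and 3 fell in Eo+ against ESC, where 35.8% of all tested loci were called higher and 36.1% lower. Ptpn13, a phosphatase that acts on ephrin-B tails, rose in both fractions, from 24.1, 12.8, 15.1 and 17.4 CPM in ESC to 82.8, 72.7, 88.4 and 80.6 CPM in Eo- and 118, 74.4, 83.6 and 89.9 CPM in Eo+. The fractions overlapped, and the rise was 2.26 and 2.41 (adjusted p = 2.61e-07 and 4.89e-08). Adam10, the protease that sheds ephrin-A ligands, rose in steps, by 0.56 in Eo- and 1.44 in Eo+ (adjusted p = 0.00652 and 1.05e-06). Pick1, a scaffold that binds ephrin-B and Eph tails, had the largest fall of these lists among genes called in Eo+ against Eo- without the replicate block (-0.74, adjusted p = 0.000149), at a locus that also holds Gm17209. Yes1, a Src family kinase, fell by 0.95 in Eo+ and by 1.52 in Eo- on the log2 scale.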

How the data were processed

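For the deposited counts the authors aligned stranded read pairs to mm10 (STAR), built transcripts on the Ensembl GRCm38 annotation (Cufflinks) and counted by strand over each merged locus (HTSeq, union mode). The submitters' processing notes name STAR 2.0.4, Cufflinks 2.2.1 and HTSeq 0.6.1. The deposited file holds these whole-number counts for 80012 loci, of which 357 have no position in the transcript annotation. How HTSeq treated read mates is not given in the sources used here. HTSeq set aside 22.4% to 26.2% of alignments as not unique, so reads shared between near-identical genes were left uncounted. A deposited table of normalized values was not used, and 0 columns of other samples were found.

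Members were matched by the gene name that the assembly carried. Loci with a mean FPKM above 0.1 in at least 1 group were tested (14216 protein-coding genes, 982 annotated and 2713 non-annotated long noncoding RNAs), and held 95.8% to 96.8% of the counts. FPKM used the summed exon length of a locus. Printed CPM and FPKM used TMM-scaled counts in tested loci, while the filter used plain totals of all counted loci. Counts were transformed by voom and fitted by group over all 12 libraries with limma 3.58.1 and edgeR 4.0.16 in R 4.3.3. This follows the approach of the study rather than a count model, which was run as an alternative with edgeR and DESeq2 1.42.0. Two-sided tests had 13.5 degrees of freedom, with Benjamini-Hochberg adjustment over the 17911 loci of a comparison. The fit was tested on simulated counts.

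Same-numbered Eo+ and Eo- libraries deviated together from their group means (correlation across loci of 0.634, 0.312, 0.371 and 0.407 for numbers 1, 2, 5 and 6), so the numbers pair the fractions and a fit with the replicate number as a block was also made. Members named in full are, per comparison, the 4 called members with the largest rise and fall at 1 CPM or more without overlap of libraries, and the highest in FPKM of each family. All others were added to account for the families. Members and lists were chosen with earlier results of these data known. Motifs were searched in windows of 250 bases from RefSeq.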

Additional observations from a re-analysis of the deposited data

Results flagged for a closer look

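Within groups of 4 libraries, the highest or lowest was set against the other 3 by Dixon's rule, which chance passes in about 1 of 20 groups, and 10 of 138 groups of the tested members passed. Eo+ replicate 5 accounted for 4 of them. It was low for Efna1 (8.47 CPM, with the rest of Eo+ at 9.54 to 9.73 CPM) and Efnb1 (14.8 CPM, against 25.9 to 27.6 CPM). It was high for Sema3e (17.0 CPM, against 7.99 to 9.11 CPM) and Sema4b (20.9 CPM, against 18.5 to 18.9 CPM). Eo- replicate 1 accounted for 3, being high for Plxnc1 (7.17 CPM, against 3.04 to 3.22 CPM) and Sema3a (3.24 CPM, against 1.16 to 1.43 CPM) and low for Sema4a (4.32 CPM, against 6.10 to 6.14 CPM).

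The other 3 were Plxnb2 in Eo+ replicate 1 (110 CPM, against 116 to 117 CPM), Plxnd1 in ESC replicate 5 (4.63 CPM, against 5.14 to 5.15 CPM) and Sema5a in ESC replicate 2 (2.50 CPM, against 3.67 to 3.73 CPM). The cause of these departures was not tested.

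The fractions were called in opposite directions against ESC at 3 members, and Eo+ against Eo- is the test of the difference of those changes. That difference was 2.56 for Efnb1 and 1.61 for Epha4 on the log2 scale, both higher in Eo+, and -2.64 for Epha8, lower in Eo+. By limma the adjusted p was 6.56e-06, 0.000181 and 3.93e-06. For Epha4 the call in Eo+ against ESC was lost in 9 of 23 alternative settings.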

How the results depend on the processing

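Requiring a 2-fold change as well left 17 members higher in Eo- against ESC, 4 members lower in Eo+ against Eo-, and 21, 13 and 4 signalling genes called in Eo+ against ESC, Eo- against ESC and Eo+ against Eo-. The other alternatives kept every count of members within 1.5 times the reported one, and on leaving out single libraries 40 to 42, 30 to 34 and 21 to 28 members were called. With the replicate block 41, 34 and 28 members were called, and 74.8%, 66.1% and 53.3% of all loci. Sample quality weights gave 41, 34 and 33 members, and 74.2%, 66.6% and 61.4% of all loci, and between the fractions they gained 10 members (Efna1, Epha2, Ephb1, Plxnb2, Plxnd1, Sema3b, Sema3e, Sema3g, Sema4g and Sema6a) and lost Sema6b. Over the 23 alternatives, 3, 10 and 16 of the 46 members gained or lost a call, or went untested, at least once. Sema3d is included in each comparison only because it went untested in 1 setting, and it neither gained nor lost a call. Same-numbered ESC and fraction libraries did not deviate together in every pair (correlations from -0.0957 to 0.135 with Eo+ and from -0.125 to 0.430 with Eo-), and apart from the members whose blocked values stand beside their results the block changed no call of a member.

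Values near 0 turned sign in some settings. Epha1 in Eo+ against Eo- ran from -0.18 to 0.14 and Sema4a in Eo- against ESC from -0.26 to 0.040 when single libraries were left out. Without ESC replicates 1 and 5, a setting chosen after seeing the data because they held the most fibroblast marker RNA, Nrp1 and Pick1 in Eo- against ESC became 0.51 and -0.017, and 41 and 31 members were called against ESC. In that setting Efnb3, Sema3c and Sema6c lost their calls in Eo- against ESC and Sema4a gained one (-0.40, adjusted p = 0.0483). The cause was not tested. By DESeq2 Plxna1 was not called in Eo- against ESC (adjusted p = 0.0807), and by edgeR Sema3c was not (0.0677). With the exon length of matched transcripts alone, Epha2 made up 71.3% of EphA in ESC and Epha1 71.5% in Eo- and 62.0% in Eo+, Sema3e 52.4% of class 3 and Plxna1 42.4% of plexins in ESC, and Ephb4 49.9% of EphB in Eo-. Depth put 3 counts at no more than 0.00485 CPM.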

Other observations

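The members that were not tested were detected in every library at low levels. Epha10, a receptor without an active kinase, held 1.02, 0.596, 0.540 and 1.07 CPM in ESC and 0.0966, 0.207, 0.213 and 0.0921 CPM in Eo+ replicates 1, 2, 5 and 6. Plxnb3 held 0.162 to 0.329 CPM in ESC and 0.0145 to 0.0482 CPM in Eo+. In both cases all Eo+ libraries lay below all ESC libraries. Epha5 was 0.0151 to 0.0886 CPM in ESC and 0.239 to 0.286 CPM in Eo+, the reverse order. Epha3 and Epha6 stayed at or under 0.528 CPM in every library. All of these levels exceeded that of 3 counts, which was at most 0.00485 CPM, and no fold change is given because they did not pass the filter.

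Other receptors that semaphorins use were mixed. Met, the receptor kinase that associates with B plexins, was called higher in both fractions, by 1.17 in Eo+ and 1.72 in Eo- (limma adjusted p = 0.000306 and 1.16e-05), and lower in Eo+ than in Eo- (-0.54, adjusted p = 0.0275). Eo+ replicate 5 held 16.4 CPM of Met and the other Eo+ libraries 7.74 to 9.80 CPM. Erbb2, another kinase partner of B plexins, was 8.24 to 10.8 CPM in ESC, 21.1 to 25.4 CPM in Eo- and 25.4 to 27.8 CPM in Eo+. Itgb1, an integrin chain used by Sema7a, fell in Eo- (-0.34, adjusted p = 0.0191) and rose in Eo+ (0.27, adjusted p = 0.0457) against ESC.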
